A study of Mus musculus with 9 samples.

Results

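The 9 genes described here encode transcription factors of the pluripotency network of embryonic stem cells (ESC), namely Pou5f1 (Oct4), Nanog, Esrrb, Zfp42 (Rex1), Nr0b1 (Dax1), Tfcp2l1, Prdm14, Sall4 and Tbx3. They were taken by symbol from a table of 37975 gene rows, and each symbol matched 1 row. Levels were followed in 9 RNA sequencing libraries of mouse cells, 1 library per group, while the endoderm factor Sox17 was induced in ESC. The first 6 groups are an ESC line that overexpresses Sox17 with doxycycline (dox), collected without dox and after 7, 21, 35 and 49 h and 6 days at 100 ng/ml dox. Sox17-XEN, from the same line, had 30 days of dox and 30 dox-free days, whose order the label does not make clear, and is described as dox-indep. The other 2 groups, both without dox, are wild type, namely XEN line IM8AR (stem cells of the extraembryonic endoderm) and R1 ESC. ESC were grown on mouse embryonic fibroblasts with serum and LIF, and XEN cells with serum and medium conditioned by such fibroblasts. The description and column name of the day 6 library include SORT, unexplained, and the labels do not say whether the Sox17 line is 1 clone.

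In ESC, Oct4 acts with Sox2 on joint DNA sites, and together with Nanog it sustains the genes of the undifferentiated state. Esrrb, Tfcp2l1 and Tbx3 are wired to the Wnt, LIF and PI3K signals that keep mouse ESC in the naive state, Prdm14 represses genes of differentiation and DNA methylation, Zfp42 is a marker of the naive state, and Nr0b1 is an atypical nuclear receptor that binds Oct4. Primitive endoderm, the lineage that XEN cells represent, is set apart from the epiblast in the blastocyst by Gata6, Gata4 and Sox17 as Nanog is switched off. Sall4 and Oct4 are also known from early primitive endoderm, and forced Tbx3 drives ESC towards extraembryonic endoderm. Sox17 can partner Oct4 on a compressed form of the site that Sox2 and Oct4 share.

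Levels are given as FPKM, fragment numbers divided by transcript length and by how many fragments mapped in the library, and as a share of the level in the uninduced Sox17 line. With 1 library per group no value has a replicate error, all shares divide by the same no dox library, and fewer cells expressing a gene cannot be told apart from less RNA per cell. The authors' lower confidence bound was 0 for 67 of the 75 usable member values. In the whole table it was 0 for 98.7% of values of at least 1 FPKM. The intervals of all 66 pairs of neighbours in the order of levels overlapped. Between the Sox17 line without dox and R1 ESC, the central 95% of 8031 genes with at least 5 FPKM in both ran from 52.6% to 212% of R1 ESC. Sox17 itself was at 0.909 FPKM without dox, then 283, 281, 191 and 151 FPKM along the times of 7, 21, 35 and 49 h, 71.1 FPKM at day 6 and 101 FPKM in Sox17-XEN. The summed level of 15 fibroblast feeder markers was 2325 FPKM without dox, 1089, 1442, 1834 and 2715 FPKM along the times of 7, 21, 35 and 49 h, 216 FPKM at day 6, 890 FPKM in Sox17-XEN, 18.9 FPKM in wild-type XEN and 1030 FPKM in R1 ESC, with no marker at 0 in any library. The part of the feeders in the values below was not tested.

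The 8 members with a share fell into 3 classes by the first sampled time at which they were at or below 50% of the uninduced level and stayed there. Nr0b1 was there from 21 h. Nanog, Prdm14, Zfp42, Pou5f1 and Tfcp2l1 followed at day 6, in that order of their shares, from 1.12% for Nanog to 49.5% for Tfcp2l1. Sall4 and Tbx3 did not reach it. The order within day 6 depends on the measure, since with FPKM + 1 in the share Zfp42 (16.4%) came before Prdm14 (30.9%). Tfcp2l1 lay at the edge of the rule, counting as lost only in Sox17-XEN with FPKM + 1 or with the mean of both ESC lines as the uninduced level, and not at all with R1 ESC or with a limit of 25%. Over 8868 genes with at least 5 FPKM without dox, 0.586% were at or below 50% from 21 h onward and 8.18% from day 6 onward. Esrrb could not be placed, because its estimate failed without dox.

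**Figure D1:**
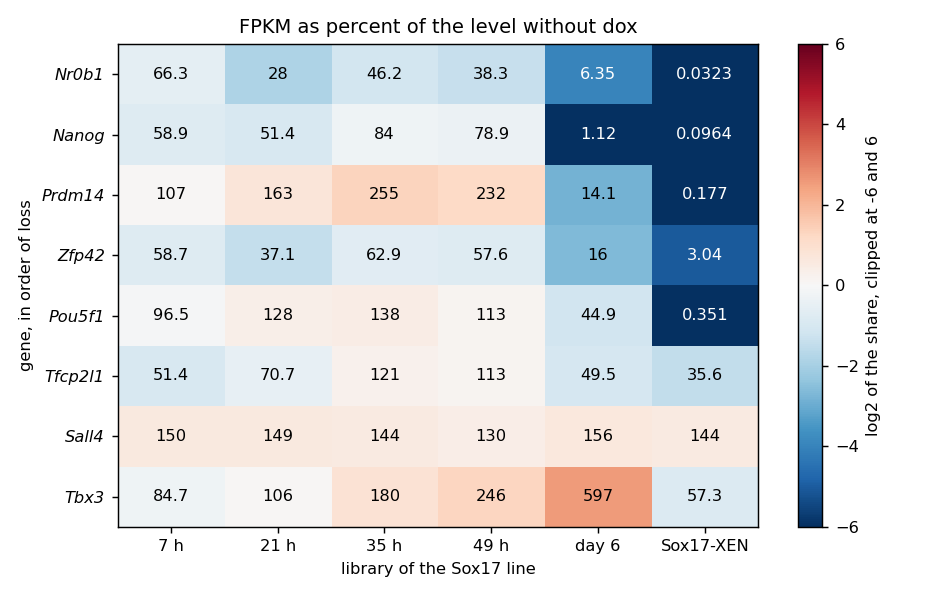
Heat map of the FPKM of 8 members (rows, in order of loss) as percent of the level without dox, in 6 later libraries of the Sox17 line (columns); the numbers are percents and the colour is the log2 of the share. Blue cells gather at day 6 and in Sox17-XEN for the upper 5 genes, whereas Sall4 lies between 130% and 156% throughout and Tbx3 reaches 597% at day 6.

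Counted time by time, 2 of 8 members were at or below 50% at 21 h (Zfp42 and Nr0b1), 0 at 7 h, only Nr0b1 at 35 and 49 h, 6 at day 6 and 6 in Sox17-XEN. The same held for 3.25%, 3.11%, 2.82% and 3.07% of genes with at least 5 FPKM without dox along the first 4 dox times, 15.1% at day 6 and 16.2% in Sox17-XEN. Prdm14, at 4.09 FPKM, lies below that level. Over genes with at least 1 FPKM the shares were 19.7% at day 6 and 21.5% in Sox17-XEN. Without dox, 0 of 8 members in the Sox17 line were at or below 50% of R1 ESC, where 3.09% of genes were.

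Nr0b1 (ENSMUSG00000025056, chromosome X, 83437103 to 83441286 in mm9), the earliest member to stay below 50%, was at 32.9 FPKM without dox, then 21.8, 9.22, 15.2 and 12.6 FPKM along the times of 7, 21, 35 and 49 h, 2.09 FPKM at day 6 and 0.0106 FPKM in Sox17-XEN. Wild-type XEN had 0.0600 FPKM and R1 ESC 54.3 FPKM. Each induced library was below both uninduced ESC lines, with 28.0%, 46.2% and 38.3% of the no dox level along 21, 35 and 49 h. At day 6 it stood at 6.35%. The values in both XEN-type lines are near 0, and without counts no detection limit can be given.

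Zfp42 (ENSMUSG00000051176, chromosome 8, 44380422 to 44392363) encodes a zinc finger protein related to Yy1. It was at 248 FPKM without dox, then 145, 91.9, 156 and 143 FPKM along the times of 7, 21, 35 and 49 h, 39.7 FPKM at day 6 and 7.52 FPKM in Sox17-XEN. Wild-type XEN had 6.10 FPKM and R1 ESC 316 FPKM. All induced libraries lay below both ESC lines. The 37.1% at 21 h was the lowest share in the first 49 h, and 62.9% at 35 h was again above 50%. At day 6 its share was 16.0%, and in Sox17-XEN 3.04%.

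Nanog (ENSMUSG00000012396, chromosome 6, 122657507 to 122664651) was at 169 FPKM without dox, then 99.7, 87.0, 142 and 134 FPKM along the times of 7, 21, 35 and 49 h, 1.89 FPKM at day 6 and 0.163 FPKM in Sox17-XEN. Wild-type XEN had 0.325 FPKM and R1 ESC 169 FPKM. The gene thus stood between 51.4% and 84.0% of the uninduced level for 49 h, and at 1.12% at day 6. The day 6 value was 70.7-fold below that at 49 h.

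Nanog, Zfp42 and Nr0b1 shared a course in the first 49 h, lower at 7 h than without dox, lower again at 21 h, and higher at 35 h while still below the start. Of 8904 genes with at least 5 FPKM without dox, 2024 (22.7%) had the same order of values, so the order alone does not mark these genes, and the size of their dip is given above. The feeder sum was lower at 7 h and 21 h than at 35 h and 49 h, and its part in the dip was not tested. The upstream 250 bases of the 3 genes are shown because they share this course and because Nanog carries the site at which Oct4 and Sox2 meet. They are RefSeq sequences of build GRCm38.p6, not of mm9, read 5′ to 3′ on the strand of the gene and ending at the base before the annotated start. Capitals mark matches, on either strand, to the POU core TTTGCAT, the octamer ATGCAAAT, the SOX core CATTGT or the canonical SOX-OCT composite, a SOX core, 1 free base and a POU half-site.
Nanog, chr6:122707239-122707488, plus strand: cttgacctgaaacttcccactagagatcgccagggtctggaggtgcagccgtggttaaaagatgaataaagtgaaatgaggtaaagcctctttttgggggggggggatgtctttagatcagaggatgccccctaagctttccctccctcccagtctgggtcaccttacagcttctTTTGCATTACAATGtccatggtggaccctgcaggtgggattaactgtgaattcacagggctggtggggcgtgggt
Zfp42, chr8:43307010-43307259, minus strand: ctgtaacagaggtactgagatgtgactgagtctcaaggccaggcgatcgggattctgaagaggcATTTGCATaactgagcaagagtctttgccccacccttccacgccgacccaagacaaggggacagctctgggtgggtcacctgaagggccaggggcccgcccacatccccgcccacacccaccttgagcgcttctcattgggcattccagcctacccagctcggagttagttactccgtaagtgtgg
Nr0b1, chrX:86191525-86191774, plus strand: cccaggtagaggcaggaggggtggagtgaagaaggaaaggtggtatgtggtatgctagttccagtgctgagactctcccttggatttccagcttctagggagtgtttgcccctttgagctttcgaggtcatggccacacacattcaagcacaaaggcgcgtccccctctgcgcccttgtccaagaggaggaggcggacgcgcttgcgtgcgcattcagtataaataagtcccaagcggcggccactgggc

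In the Nanog sequence the marked run lies 75 to 62 bases upstream of this start and reads as a POU core followed by a SOX core on the other strand, and it overlaps the composite. Of 32851 promoter windows of the same length, 19 (0.0578%) held the composite, including both entries of Nanog, which overlap each other. The compressed form, which lacks the free base, was in 6 windows (0.0183%), none of them of a member. The run in Zfp42 is an octamer that contains a POU core, 186 to 179 bases upstream. Octamers were found in 1.60% of all windows, POU cores in 4.12% and SOX cores in 10.7%. The Nr0b1 window held none of these letters. Of the other members, 3 had entries, and a SOX core in 1 of 2 Pou5f1 windows was the only further match. Neither the ESRRB site TCAAGGTCA (0.387% of windows) nor the STAT site TTCCNGGAA (0.913%) was found in the 9 windows of the 6 members with entries.

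Prdm14 (ENSMUSG00000042414, chromosome 1, 13103538 to 13117244), a PR domain protein, was the least abundant member in uninduced cells and took a different path. It was at 4.09 FPKM without dox, then 4.37, 6.69, 10.5 and 9.51 FPKM along the times of 7, 21, 35 and 49 h, 0.575 FPKM at day 6 and 0.00725 FPKM in Sox17-XEN. Wild-type XEN had 0.0341 FPKM and R1 ESC 5.87 FPKM. Its levels from 21 to 49 h were above those of both uninduced ESC lines, at 163%, 255% and 232% of no dox. At day 6 it was at 14.1%, a 16.5-fold lower value than at 49 h.

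Pou5f1 (ENSMUSG00000024406, chromosome 17, 35642982 to 35647721) was the most abundant member in every library up to day 6. It was at 723 FPKM without dox, then 698, 927, 994 and 817 FPKM along the times of 7, 21, 35 and 49 h, 325 FPKM at day 6 and 2.54 FPKM in Sox17-XEN. Wild-type XEN had 3.22 FPKM and R1 ESC 1080 FPKM. The share was 96.5% at 7 h (105% after rescaling by the median gene), between 113% and 138% from 21 to 49 h, and 44.9% at day 6. Its interval is wide, with an upper bound of 4630 FPKM without dox. The predicted gene Gm19553 lies at the same listed locus, and how the authors treated reads shared with Pou5f1 or Nanog pseudogenes is not given in the sources used here.

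Ratios between genes of 1 library do not depend on the scaling of that library. The FPKM of Nanog was 23.4% of that of Pou5f1 without dox, then 14.3%, 9.39%, 14.3% and 16.3% along 7, 21, 35 and 49 h and 0.582% at day 6. R1 ESC had 15.6%. At day 6 this ratio was lower than in any of the other 8 libraries. Sall4 stood at 20.7% and Tbx3 at 23.7% of Pou5f1 at day 6, against 5.98% and 1.78% without dox.

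**Figure D2:**
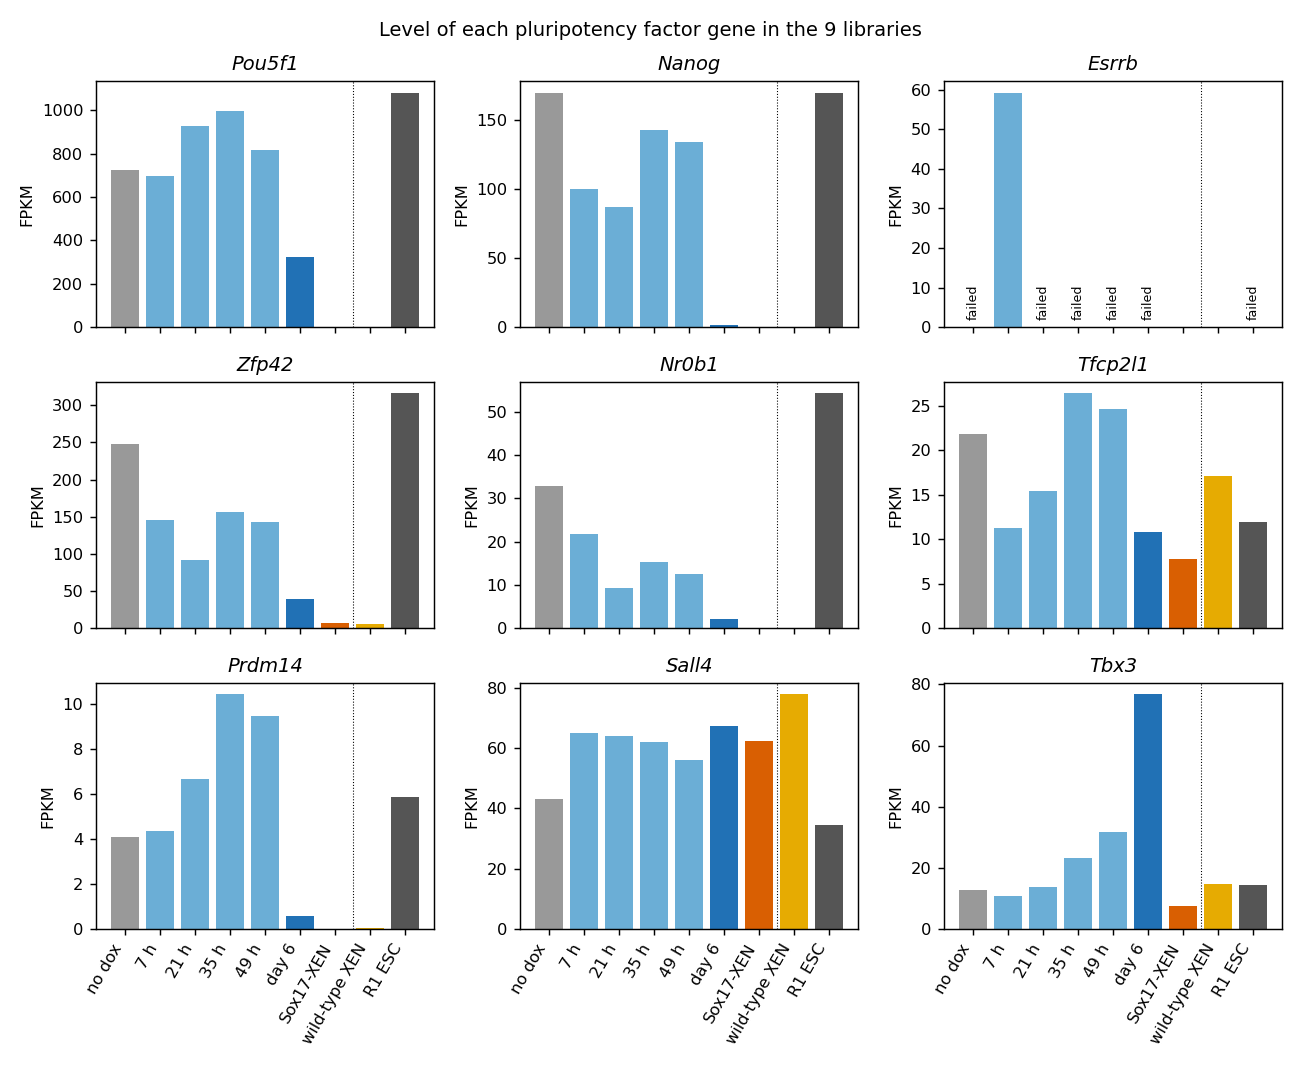
Bars give FPKM on linear axes, 1 panel per gene, in the 9 libraries; grey bars are the ESC lines without dox, blue bars the dox course, orange Sox17-XEN and yellow wild-type XEN, with the wild-type lines right of the dotted line. Pou5f1 is still at 325 FPKM at day 6 when Nanog is at 1.89 FPKM, and Tbx3 peaks at 76.8 FPKM in that library; "failed" marks Esrrb values without a usable estimate.

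Tfcp2l1 (ENSMUSG00000026380, chromosome 1, 120524522 to 120581744), a grainyhead-type factor downstream of LIF and STAT3, changed least among the members that passed 50%. It was at 21.8 FPKM without dox, then 11.2, 15.4, 26.4 and 24.7 FPKM along the times of 7, 21, 35 and 49 h, 10.8 FPKM at day 6 and 7.77 FPKM in Sox17-XEN. Wild-type XEN had 17.1 FPKM and R1 ESC 11.9 FPKM. Its levels at 7 h, day 6 and in R1 ESC were alike, while those at 35 and 49 h were above no dox. The day 6 value was 2.28-fold below that at 49 h. The place of this gene in the order depends on which uninduced level is used. Relative to R1 ESC it was at 90.9% at day 6 and 65.2% in Sox17-XEN.

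Sall4 (ENSMUSG00000027547, chromosome 2, 168573832 to 168593608), a zinc finger protein that recruits the NuRD complex, was retained. It was at 43.2 FPKM without dox, then 64.9, 64.2, 62.2 and 56.2 FPKM along the times of 7, 21, 35 and 49 h, 67.3 FPKM at day 6 and 62.3 FPKM in Sox17-XEN. Wild-type XEN had 78.0 FPKM and R1 ESC 34.5 FPKM. All 7 of the other libraries were above both uninduced ESC lines, also after rescaling, when the Sox17-XEN share was 112% in place of 144%. The predicted gene Gm14261 shares its listed locus, and its upper confidence bound was 486 FPKM without dox.

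Tbx3 (ENSMUSG00000018604, chromosome 5, 120061272 to 120134733), a T-box factor, was slightly above the no dox level at 21 h. From 35 h to day 6 it was above both uninduced ESC lines, and in Sox17-XEN below both. It was at 12.9 FPKM without dox, then 10.9, 13.7, 23.1 and 31.7 FPKM along the times of 7, 21, 35 and 49 h, 76.8 FPKM at day 6 and 7.37 FPKM in Sox17-XEN. Wild-type XEN had 14.5 FPKM and R1 ESC 14.3 FPKM. The day 6 level was 597% of no dox and 10.4-fold above that in Sox17-XEN, and no other library exceeded 31.7 FPKM. At day 6 it was the 1 member past a difference of 2 log2 units in the upward direction on the scale of log2(FPKM + 1), as were 5.14% of 14992 genes. Rows for 3 predicted genes share its listed locus.

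Esrrb (ENSMUSG00000021255, chromosome 12, 87702067 to 87862578), an orphan nuclear receptor, had a usable estimate in 3 of 9 libraries. It was at 59.2 FPKM at 7 h, 0.0881 FPKM in Sox17-XEN and 0.157 FPKM in wild-type XEN. The other 6 estimates have the status of a failed fit. Their listed values are 101 FPKM without dox, 71.3, 103 and 94.6 FPKM along 21, 35 and 49 h, 8.58 FPKM at day 6 and 78.4 FPKM in R1 ESC. Taken as listed, Esrrb would be at 8.46% at day 6 and would enter the order between Nanog and Prdm14, but these values carry no estimate that can be relied on.

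The order also differs by how much of the loss came before day 6. On the scale of log2(FPKM + 1), Nanog had covered 81.8% of its difference between Sox17-XEN and no dox by day 6, Prdm14 72.4%, Tfcp2l1 68.8% of a smaller one, Nr0b1 68.2%, Zfp42 53.7% and Pou5f1 15.0%. The Nanog difference was -5.54 between day 6 and 49 h and -1.31 between Sox17-XEN and day 6. For Pou5f1 these were -1.33 and -6.52, with a day 6 level 128-fold above that of Sox17-XEN. Zfp42 was spread over all steps, with -0.79 by 49 h, -1.82 to day 6 and -2.25 to Sox17-XEN. For genes near 0 in Sox17-XEN the percentage depends on the pseudocount. Without it the order changed to Tfcp2l1 at 67.9%, Nanog at 64.7%, Zfp42 at 52.4%, Nr0b1 at 34.3%, Prdm14 at 31.0% and Pou5f1 at 14.2%.

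**Figure D3:**
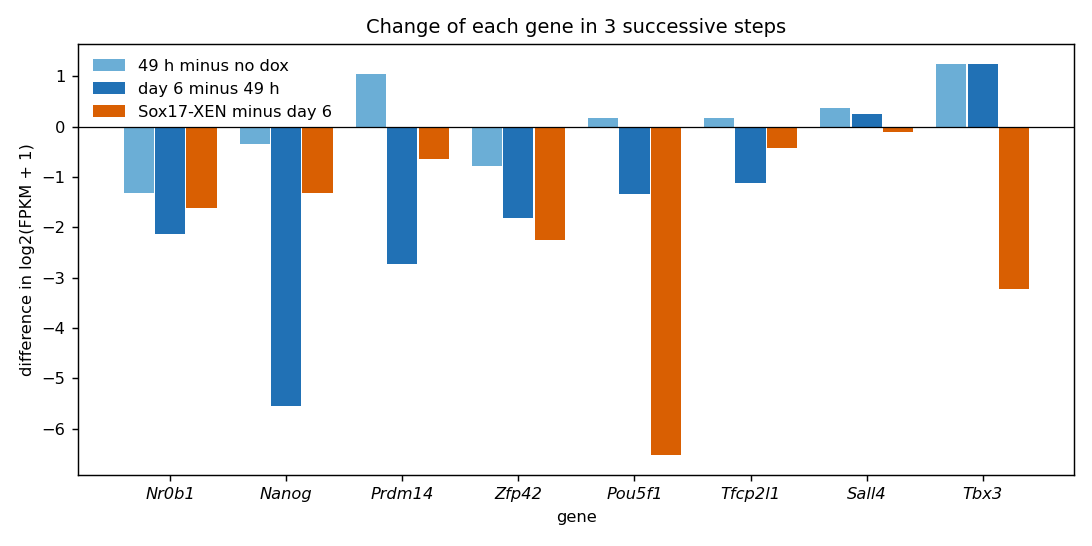
Bars give the difference in log2(FPKM + 1) for 8 members in 3 steps, 49 h minus no dox, day 6 minus 49 h and Sox17-XEN minus day 6. The largest bar of Nanog (-5.54) is the step to day 6 and that of Pou5f1 (-6.52) the step to Sox17-XEN, while Tbx3 turns from positive steps to -3.22.

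By size of difference, 3 of 8 members were lower at day 6 than without dox by at least 2 log2 units (Nanog, Nr0b1 and Zfp42) and 5 of 8 in Sox17-XEN (these with Pou5f1 and Prdm14). Over all genes this was 3.86% at day 6 and 5.0% in Sox17-XEN. The members' median was -1.42 at day 6 and -3.60 in Sox17-XEN, and the median of all genes 0.10 and 0.17. At 7, 21, 35 and 49 h 0 of 8 were past that difference, as were 0.340%, 0.446%, 0.460% and 0.466% of genes. No pair of intervals was apart.

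In limma, with the rank of time as the predictor over the 6 libraries from no dox to day 6, 0 of 14933 genes passed for a trend in either direction (0% called). Nr0b1 (slope -0.54 log2 units per step, SE 0.14, adjusted p = 0.144), Zfp42 (-0.35, SE 0.13, adjusted p = 0.188) and Tbx3 (0.50, SE 0.09, adjusted p = 0.116) had an unadjusted p under 0.05, as did 8.74% of genes downward and 16.4% upward. Nanog had a slope of -0.78 (SE 0.38, adjusted p = 0.242). The other 4 members had slopes between -0.14 and 0.07. With time in hours 5 members and 6340 genes passed, and with day 6 left out as well 0 members and 1 gene did, so the fit in hours rests on day 6.

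The XEN-type lines were Sox17-XEN and wild-type XEN, and the ESC-type lines were the Sox17 line without dox and R1 ESC. They were compared in limma for a difference beyond 2 log2 units, each line as 1 unit. Sox17-XEN comes from the Sox17 line, so the 4 units are not all independent, and the test was unpaired. Nanog (-7.10 log2 units, SE 0.23, adjusted p = 0.0327) and Pou5f1 (-7.84, SE 0.28, adjusted p = 0.0327) were lower, 2 of 7 genes called in that direction (0.0469% of 14925), and no member was among the 6 called higher (0.0402%). At an unadjusted p under 0.05, these and Zfp42, Nr0b1 and Prdm14 were lower, as were 2.1% of genes, while no member was among the 2.22% higher. Zfp42 (-5.17, adjusted p = 0.0586), Nr0b1 (-5.39, adjusted p = 0.0932) and Prdm14 (-2.54, adjusted p = 1) did not pass. For any difference from 0, these 5 members were lower with adjusted p between 0.0167 and 0.0172, as were 9.89% of genes, and Sall4 (0.83, adjusted p = 0.0733), Tfcp2l1 (-0.45) and Tbx3 (-0.35) did not pass. Without any 1 of the 4 lines no member passed the test beyond 2 log2 units (adjusted p between 0.122 and 0.699 for Nanog and Pou5f1).

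Of the 6 members lost along the course, all but Tfcp2l1 were at 3.04% or less of no dox in Sox17-XEN, and of R1 ESC in wild-type XEN. Tfcp2l1 was at 35.6% and 144%, with 7.77 FPKM in Sox17-XEN and 17.1 FPKM in wild-type XEN. Pou5f1 was at 2.54 FPKM in Sox17-XEN and 3.22 FPKM in wild-type XEN, Zfp42 at 7.52 and 6.10 FPKM, and Nanog, Esrrb, Nr0b1 and Prdm14 were below 0.4 FPKM in both. Pou5f1 differed by -7.68 between Sox17-XEN and no dox and by -8.00 between wild-type XEN and R1 ESC, and Nanog by -7.19 and -7.00. In wild-type XEN 5 of 8 members were lower than in R1 ESC by at least 2 log2 units, as were 6.54% of genes. In each line Sall4 was the most abundant member, at 62.3 FPKM in Sox17-XEN and 78.0 FPKM in wild-type XEN. On the scale of log2(FPKM + 1), none of the 9 members differed by 2 log2 units between the 2 lines. By that rule 1.59% of genes were lower and 2.73% higher in Sox17-XEN. Nanog, Esrrb, Nr0b1 and Prdm14, below 0.4 FPKM in both lines, could not reach that difference on this scale. By plain ratio they were at 50.1%, 56.0%, 17.7% and 21.3% of wild-type XEN, at levels near 0.

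**Figure D4:**
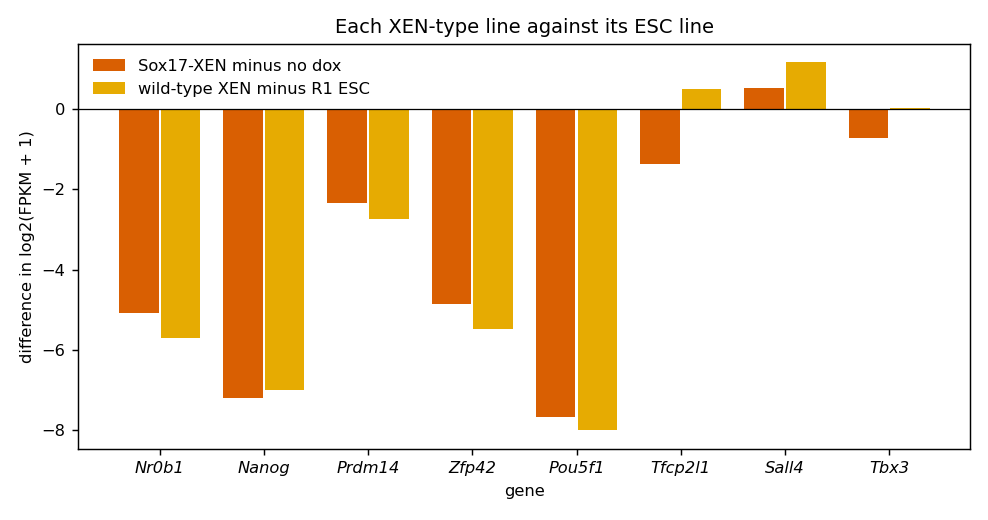
Bars give the difference in log2(FPKM + 1) of 8 members in 2 pairs of lines, Sox17-XEN minus no dox (orange) and wild-type XEN minus R1 ESC (yellow). The 5 genes at left are below -2 in both pairs, Sall4 is above 0 in both, and Tfcp2l1 has -1.38 and 0.49.

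Other genes of the pluripotency network were read by the same rule. Of 31 with at least 5 FPKM without dox, Fgf4 was at or below 50% from 7 h onward, Tdgf1 and Zscan10 from 21 h, Klf2 from 49 h, 15 from day 6 and 6 from Sox17-XEN, and 6 did not get there. Cumulatively 4 of 31 (12.9%) were lost by 49 h and 19 (61.3%) by day 6, against 2.12% and 10.3% of all genes. Sox2, the partner of Oct4, was among the 15, at 1.84 FPKM at day 6 against 131 FPKM without dox. Dppa5a, at 1733 FPKM at day 6 and 1.87 FPKM in Sox17-XEN against 1375 FPKM without dox, was among the 6 that followed later. Klf4 and Klf5, Kruppel-like factors of the naive state, were not lost, with Klf4 at 91.9 FPKM at day 6 and 236 FPKM in Sox17-XEN, against 41.6 FPKM without dox. Of all 32 listed genes, 12 were lower at day 6 by at least 2 log2 units (median -1.72) and 23 in Sox17-XEN (median -4.32), where Klf4 was higher, as were 5.75% of all genes. Utf1 was at 79.0 FPKM at day 6 and 0.428 FPKM in Sox17-XEN, against 351 FPKM without dox.

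**Figure D5:**
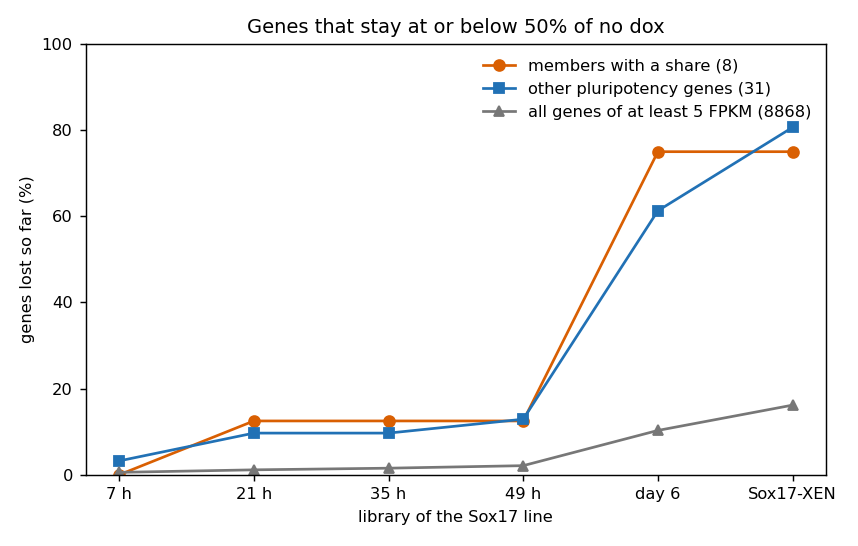
Lines give the cumulative percentage of genes that are at or below 50% of no dox from that library onward, for 8 members, 31 other pluripotency genes and 8868 genes with at least 5 FPKM without dox. At 49 h the members are at 12.5% and the other pluripotency genes at 12.9%, and at day 6 they are at 75.0% and 61.3%, against 10.3% of all genes.

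Genes of the primed epiblast, the later state that ESC pass into, were mostly lower early. Of 9 with at least 5 FPKM without dox 5 were at or below 50% at 7 h and 7 at 21 h, and 4 of 10 were lower by at least 2 log2 units at 21 h, where 3.11% and 0.446% of all genes were. Cdh2, named after its values were seen, went the other way, with 17.2 FPKM at 21 h, against 7.07 FPKM without dox, and T was at 7.99 FPKM, against 7.71 FPKM. Foxd3, a forkhead repressor, was at 7.99 FPKM without dox, then 1.61, 0.616 and 1.04 FPKM along 7, 21 and 49 h. Zic2 and Zic5 were at 0.726 and 0.732 FPKM at 21 h, against 8.55 and 9.80 FPKM without dox, and Otx2 was at 9.77 FPKM, against 25.8 FPKM.

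Some primitive endoderm regulators were higher before day 6. Of 12 genes 1, 3, 5 and 9 were higher by at least 2 log2 units along 7, 21, 35 and 49 h and 12 at day 6, with medians of 0.04 at 7 h, 2.58 at 49 h and 6.12 at day 6. Over all genes the shares higher by that much were 0.446%, 0.746%, 0.614% and 0.706% along 7, 21, 35 and 49 h and 5.14% at day 6. At 49 h, when Nanog was at 78.9%, Pou5f1 at 113%, Zfp42 at 57.6% and Nr0b1 at 38.3% of no dox, Gata4 was at 32.0 FPKM and Sox7 at 7.05 FPKM, against 0.824 and 0.256 FPKM without dox. The highest number of losses among the members came between 49 h and day 6, an interval in which no library was collected.

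Genes of the LIF and STAT3 axis around Esrrb and Tfcp2l1 were mixed. Of 13, 2 were lower and 0 higher at day 6 (median 0.46), and 2 were lower and 2 higher in Sox17-XEN (median 0.36). The receptor gene Lifr was at 26.4 FPKM at day 6 and 86.6 FPKM in Sox17-XEN, against 5.89 FPKM without dox, while the STAT3 target Pim1 was at 9.38 and 14.0 FPKM, against 41.8 FPKM. Lef1, a Wnt effector, was at 0.108 FPKM at day 6 and 0.154 FPKM in Sox17-XEN, against 6.71 FPKM. None of 14 genes for repressor partners of Nanog, Oct4 and Sall4 was past 2 log2 units at day 6 (median -0.49) or in Sox17-XEN (median -0.38). Among them Rbbp7, a subunit of NuRD and other histone complexes, was at 499 FPKM at day 6 and 295 FPKM in Sox17-XEN, against 134 FPKM without dox. Among relatives of the members, a list of 23 genes that also holds Tfcp2l1, 16 passed the filter on low values. Of these, 3 were lower by at least 2 log2 units at day 6 and 4 in Sox17-XEN. Nr5a2, a receptor that can stand in for Oct4 in reprogramming, was at 0.0863 FPKM at day 6 and 0.00998 FPKM in Sox17-XEN, against 8.75 FPKM, and Grhl2, related to Tfcp2l1, was at 0.536 and 0.324 FPKM, against 19.5 FPKM.

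The genes whose log2(FPKM + 1) profile over the 9 libraries was most like that of a member were searched among 9308 named coding genes. The libraries share 2 states and mostly 1 line, so high values are common and are given as a description. Sox2 (Pearson r = 0.998), Nup210 (0.998) and Gjc1 (0.997) were closest to Nanog. Pnldc1 (0.995) and Spry1 (0.995) were among the 3 closest to Pou5f1. Alg13 (0.994) was closest to Zfp42, Slc35f2 (0.990) to Nr0b1, and Rps6kl1 (0.991) and Tfap2c (0.990) to Prdm14. The profiles of Sall4, Tbx3 and Tfcp2l1 had looser matches, led by Pip4k2a (0.972), Cd47 (0.952) and Gsto1 (0.899). Cd47 was at 12.5 FPKM at 49 h, 21.0 FPKM at day 6 and 3.46 FPKM in Sox17-XEN, against 6.81 FPKM without dox.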

How the data were processed

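Values are the FPKM of each gene as deposited, with confidence bounds and a status, for 9 libraries made from Trizol RNA with the TruSeq RNA kit, per the labels' protocols. Alignment and quantification tools, per the submitters' processing notes, include Cufflinks 2.1.2, TopHat2 2.0.11 and an unversioned Cuffdiff, with build mm9. The annotation and the use of strand are not given in the sources used here. The status is recorded per value in the deposited table, and estimates with another status than OK (390 to 425 per library) were treated as missing. Read numbers are not part of it, and the absolute depth is therefore unknown. The commonest ratio of low values put the depth between 62.0% (day 6) and 127% (7 h) of R1 ESC, but at most 13.2% of the low values had that ratio. Scaling to the median gene divides levels by 1.19 at day 6 and 1.29 in Sox17-XEN relative to no dox.

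Shares used FPKM, and differences used log2(FPKM + 1), which understates changes of low genes. The filter kept the 15082 genes that reach 1 FPKM in some library. Tests used limma 3.58.1 in R 4.3.3, two-sided, with empirical Bayes and a mean trend and Benjamini-Hochberg adjustment over all genes. On simulated data with 200 changed genes of 14865, both tests recovered all 200, with 11 false calls for the trend and 0 for the lines. The planted slope was 0.5 and the planted difference 5 log2 units. All simulated levels were high and shared a common spread, so this says nothing of low genes or smaller changes. Other values used Python 3.11.15, pandas 2.3.3 and numpy 2.4.6. A symbol with 2 rows was read from the row with the higher maximum. Genes named beside the 9 members were up to 4 per list with the largest difference at day 6 or in Sox17-XEN, and for each member those closest in profile. Klf2, Klf5, Zscan10 and Fgf4 were named after their values were seen, as was the choice among the 3 closest genes. The members and lists were chosen with earlier results of these data known. Promoter sequences came from RefSeq, which had entries for 6 of the 9 members. One result on a gene close in profile to a member is not reported here.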

Additional observations from a re-analysis of the deposited data

Results flagged for a closer look

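Sox17-XEN was set against the Sox17 line without dox, and wild-type XEN against R1 ESC. The differences had opposite signs in these 2 pairs of lines for Tfcp2l1 and Tbx3. Tfcp2l1 was at 7.77 FPKM in Sox17-XEN against 21.8 FPKM without dox (-1.38 on the scale of log2(FPKM + 1)), and at 17.1 FPKM in wild-type XEN against 11.9 FPKM in R1 ESC (0.49), which makes -1.87 between the pairs. Rescaling by the median gene left the second pair at 102% in place of 144%. Tbx3 was at 7.37 FPKM in Sox17-XEN against 12.9 FPKM without dox (-0.73), and at 14.5 FPKM in wild-type XEN against 14.3 FPKM in R1 ESC (0.02), which makes -0.75. After rescaling by the median gene Tbx3 stood at 72.2% in wild-type XEN relative to R1 ESC, so that both pairs had the same sign. With 1 library per line these differences were not tested.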

How the results depend on the processing

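No paired analysis was possible because each group has 1 library. Counts of members did not move by more than 1.5 times under scaling to the median gene or to housekeeping genes, with the mean of both ESC lines as reference, with FPKM + 1 in the share, or with failed estimates used as listed. Single shares of low genes did, and with FPKM + 1 Nanog was at 0.683%, Nr0b1 at 2.98% and Prdm14 at 19.8% in Sox17-XEN, and Prdm14 at 30.9% at day 6. With R1 ESC as the reference, 2 members were at or below 50% at each of 7, 35 and 49 h, and 2 were lost before day 6 (Nr0b1 and Zfp42, both from 7 h). In that setting 1 member was lower by 2 log2 units at 21 h and 1 at 49 h (Nr0b1), and Tfcp2l1 was not lost. With 25% in place of 50%, 0 members were below it at 21, 35 and 49 h 0 were lost before day 6, and Pou5f1 was lost only in Sox17-XEN. Without 21 h, an alternative chosen after seeing the data, Nr0b1 was lost from 35 h. At 1 log2 unit 2 members were lower at 21 h, 1 at 35 h, 1 at 49 h and 5 at day 6. Asking for intervals apart left 0 at day 6, 0 in Sox17-XEN and 0 in wild-type XEN. Except for Zfp42, this follows from lower bounds of 0. The lower bound of Zfp42 was 6.02 FPKM without dox, below its upper bounds at day 6 (82.4 FPKM) and in Sox17-XEN (17.4 FPKM). In R1 ESC its lower bound was 7.19 FPKM, below its upper bound in wild-type XEN (14.3 FPKM). Tbx3 was at 44.5% in Sox17-XEN after rescaling by the median gene and would then count as lost there.

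The trend on rank called 0 members and 0 genes without each library in turn. In hours it called 5 members and 6340 genes, and in hours without day 6, added after seeing the data, 1 gene. With Sox17-XEN added it called 1 member (Nr0b1) and 2009 genes. In hours without day 6 the slopes turned positive for Nanog (0.00051 log2 units per hour), Pou5f1 (0.0067), Tfcp2l1 (0.014) and Prdm14 (0.025). Leaving out 1 library turned the slope per step of Pou5f1 (-0.24 to 0.086), Tfcp2l1 (-0.10 to 0.15), Prdm14 (-0.31 to 0.32) and Sall4 (-0.0087 to 0.10), none past the threshold. Between XEN-type and ESC-type lines, 4 members and 105 genes passed with a pseudocount of 0.1, 0 and 0 without the filter on low values, and 5 and 3205 with no minimum difference, against 2 and 13. Without 1 line, 0 members and 0 genes passed, with adjusted p in limma between 0.122 and 0.699 for Nanog and Pou5f1, where the lone line is assumed to vary like the other state; the differences of Tbx3 (-0.80 to 0.092) and Tfcp2l1 (-0.97 to 0.078) then changed sign. The unknown depth limits what can be said of levels near 0.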

Other observations

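Prdm14 was not alone in being higher from 21 to 49 h and low at day 6. The same held for Prdm1 and Tfap2c, which with Prdm14 are known as regulators of mouse germ cell specification, and for Dppa3, a germ cell and naive ESC gene. How many of all genes had such a course was not counted. Prdm1, unlike Prdm14, was well above no dox already at 7 h. Prdm1 was at 4.41 FPKM without dox, then 17.0, 22.8, 16.3 and 13.6 FPKM along 7, 21, 35 and 49 h and 0.440 FPKM at day 6. Tfap2c was at 22.7 FPKM without dox, then 21.4, 52.1, 60.4 and 51.7 FPKM along 7, 21, 35 and 49 h and 1.57 FPKM at day 6. Dppa3 was at 26.5 FPKM without dox, then 50.5 and 59.1 FPKM along 35 and 49 h and 0.494 FPKM at day 6. These genes were put together after their values were seen. Nanos3 of the germline list, also named after its values were seen, was at 1.90 FPKM without dox. It was then at 1.19, 2.02, 4.58 and 3.85 FPKM along 7, 21, 35 and 49 h and 0.0982 FPKM at day 6. The germline list as a whole did not share this course, since Ddx4 was at 7.52 FPKM and Sycp3 at 34.3 FPKM at day 6, against 3.66 and 8.50 FPKM without dox. Of its 6 genes 1, Prdm1, was higher by at least 2 log2 units at 21 h, as were 0.746% of all genes.

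Zscan4d, a gene of the 2-cell state, was lower at each time after 7 h. It was at 8.19 FPKM without dox, then 8.31, 4.99, 3.83 and 2.98 FPKM along 7, 21, 35 and 49 h and 0.292 FPKM at day 6, and 3 of 3 Zscan4 genes past the filter on low values were lower by at least 2 log2 units at day 6. R1 ESC had 29.3 FPKM, above the 8.19 FPKM of the Sox17 line without dox. Of 6 trophoblast genes 1, Tead4, was higher and 1, Tfap2c, lower by at least 2 log2 units at day 6. Over all genes 5.14% were higher and 3.86% lower by that much. Cdx2 was at 1.61 FPKM at day 6, against 0.251 FPKM without dox.

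Of 15 fibroblast feeder markers 12 were lower at day 6 than without dox by at least 2 log2 units (median -2.94) and 2 in Sox17-XEN (median -1.14). Of 16 housekeeping genes Tfrc was lower (2.32 FPKM, against 62.1 FPKM) and B2m higher (324 FPKM, against 73.3 FPKM) by at least 2 log2 units at day 6. The list median was 0.12.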
